A study of Mus musculus with 6 samples.

Results

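The circular RNAs (circRNAs) described here come from genes of the BEACH domain family in mouse brain. They are the rows of the deposited circRNA table whose host gene is Nbea, Nbeal1, Nbeal2, Lrba, Wdfy3, Lyst or Nsmaf, 66 of the 18136 circRNAs in the table. Host genes were chosen by name within the family, with Nbea put first because its circRNAs and reads were known to be the most numerous. Those numbers are therefore given as a description only. Of the 7 genes, 5 had a circRNA: 31 circRNAs came from Nbea, 17 from Lrba, 11 from Nbeal1, 6 from Wdfy3 and 1 from Nsmaf. No row analysed here names Nbeal2 or Lyst as host.

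A circRNA is a closed ring made when the end of a downstream exon is spliced back to the start of an upstream one, and it is recognised by reads that cross this back-splice junction. BEACH proteins are mostly very large intracellular proteins named after beige and Chediak-Higashi syndrome, the mouse and human disorders of the Lyst gene. They share a BEACH domain near the C-terminal end, followed by WD40 repeats, and act mostly as scaffolds in membrane trafficking. Nbea encodes neurobeachin, a neuronal protein that anchors protein kinase A and is needed for the delivery of neurotransmitter receptors to synapses. Lrba, its closest relative, is needed in human immune cells for the recycling of the receptor CTLA4. Nbeal1 and Nbeal2 are further neurobeachin-like genes, and Nbeal2 serves platelet granules. Wdfy3 encodes ALFY, an adaptor of selective autophagy of protein aggregates, and Nsmaf encodes FAN, which links a TNF receptor to neutral sphingomyelinase.

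The libraries, made from mouse brain RNA enriched for circRNA, fall into 3 of wild type mice (WT) and 3 of A53T mice, the transgenic Parkinson disease model of the study. The sample labels give brain as the tissue, and the series text speaks of the substantia nigra; the sources used here do not give age, sex, strain or the promoter of the transgene. No label says whether each library is another animal, and p-values therefore measure the spread among these samples only, some or all of which may be technical. The libraries held 25217 to 36390 junction reads, so that 1 read was worth 27.5 to 39.7 CPM when scaled to the library's total. Levels of circRNAs and host genes below are CPM after TMM scaling, which corrects the totals for composition, and levels of marker lists are CPM of the totals. A circRNA is listed where some library had 2 or more of its reads. Neuron markers were checked as host genes: 6 of 7 had a circRNA, as did 2 of 6 astrocyte markers (Slc1a2 and Slc1a3), 1 of 6 oligodendrocyte markers (Mog) and 1 of 5 endothelial markers (Flt1). None of the 6 microglia, 6 dopaminergic neuron and 5 blood markers had one in the rows analysed here, Th and Slc6a3 included. The lack of a circRNA does not show that a gene or a cell type was absent, so the markers check neither account of the tissue.

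The junctions of the leading circles show how alternative circles of one gene share an end. Each sequence runs 5′ to 3′ across the back-splice junction, with the last 20 bases of the last exon followed by the first 20 bases of the first exon, read from the GENCODE M21 transcript that the table names. The first set joins the ends of different exons to the start of Nbea exon 2, and the capitals mark the shared start of that exon.
Nbea exons 2 to 8: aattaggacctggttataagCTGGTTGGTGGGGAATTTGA
Nbea exons 2 to 10: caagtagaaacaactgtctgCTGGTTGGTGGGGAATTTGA
Nbea exons 2 to 6: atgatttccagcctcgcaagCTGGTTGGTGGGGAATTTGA
Nbea exons 2 to 7: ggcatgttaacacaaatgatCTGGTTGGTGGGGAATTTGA
The next set does the reverse: the end of Nbea exon 38, in capitals, is joined to the starts of exons 36, 35 and 37.
Nbea exons 36 to 38: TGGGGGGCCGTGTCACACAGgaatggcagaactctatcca
Nbea exons 35 to 38: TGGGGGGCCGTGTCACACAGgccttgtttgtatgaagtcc
Nbea exons 37 to 38: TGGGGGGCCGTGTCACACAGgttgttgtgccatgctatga
The last set belongs to Lrba and shares the end of exon 40, in capitals.
Lrba exons 38 to 40: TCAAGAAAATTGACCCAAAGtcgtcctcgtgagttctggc
Lrba exons 37 to 40: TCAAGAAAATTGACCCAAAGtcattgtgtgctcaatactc

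Nbea produced most of the junction reads of the family. It held 657 of the 916 family reads (71.7%), Lrba 192 (21.0%), Nbeal1 40, Wdfy3 24 and Nsmaf 3. Among 5414 named host genes, whose medians were 2 circRNAs and 8 reads, Nbea ranked 6 by number of circRNAs and 26 by reads, and Lrba 69 and 162. Exonic circles made up 62 of the 66, and each of the 62 could be placed on annotated exons that fit both its span and its predicted length. Reads at the junction show only the ends of a circle, so inner exons and lengths are predicted. Of the 66, 31 (47.0%) were read in 1 library only, against 50.7% of all circRNAs, and 6 were read in all 6 libraries.

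The circles that start at exon 2 dominated Nbea. The gene lies on the minus strand of chromosome 3, and its table transcript, ENSMUST00000029374, has 58 exons and 2936 codons. Exons 2 to 8 (55987280 to 55998541, mm39, 945 nt) gave the leading circle, with 294 reads or 44.7% of the gene's reads. It covers codons 89 to 403, far upstream of the BEACH domain. Exons 2 to 10 (55965371 to 55998541, 1277 nt) gave 114 reads, exons 2 to 6 (55992663 to 55998541, 678 nt) gave 60 and exons 2 to 7 gave 9. Together these 4 circles held 477 reads, 72.6% of Nbea, all with the same start. The leading first exon of a host took a median of 47.2% of matched reads over the 216 hosts with at least 10 matched circRNAs, and 34 of these hosts exceeded the 73.2% of Nbea by the same measure. A start at exon 2 is also common in other genes. It accounts for 41.7% of the reads and 27.7% of the circRNAs among all matched ones, against 73.2% and 13.8% in Nbea.

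A second group of Nbea circles ended at exon 38, in the later part of the coding sequence. Exons 36 to 38 (55761192 to 55781204, 341 nt) gave 32 reads, exons 35 to 38 (55761192 to 55799095, 403 nt) 28, exons 37 to 38 (55761192 to 55764489, 276 nt) 26 and exons 34 to 38 gave 6. These 4 circles held 92 reads, 14.0% of Nbea, and lie within codons 1873 to 2050. A further circle, exons 41 to 45 (55618048 to 55693998, 587 nt), had 6 reads in WT replicate 1, 5 in A53T replicate 3 and 0 in the other libraries. No remaining Nbea circle had more than 9 reads. Very long ones were exons 9 to 31 (4127 nt, 6 reads) and exons 19 to 34 (3331 nt, 8 reads).

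**Figure D1:**
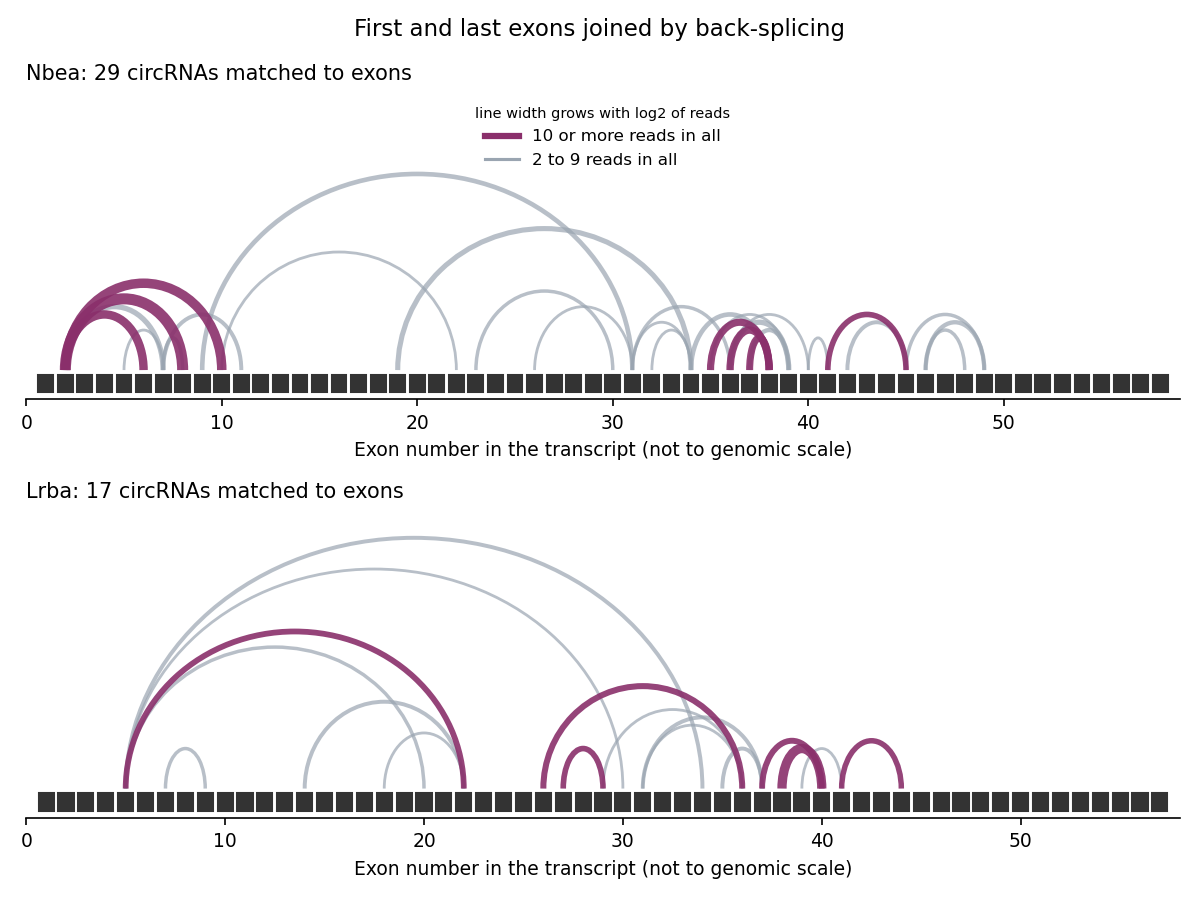
Back-spliced exon pairs of Nbea (29 circRNAs) and Lrba (17 circRNAs). The x axis is the exon number in the table's transcript, each arc joins the first and last exon of a circRNA, its height has no unit, and its width grows with the log2 of the reads over 6 libraries. Arcs of Nbea fan out from exon 2 and converge on exon 38, and the thickest arc of Lrba joins exons 38 and 40.

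The Lrba circles had another centre. The gene lies on the plus strand of chromosome 3, and its table transcript, ENSMUST00000107635, has 57 exons and 2854 codons. Exons 38 to 40 (86439392 to 86450018, 409 nt, codons 1976 to 2112) gave 100 reads, 52.1% of the gene's reads. Exons 37 to 40 (86352614 to 86450018, 576 nt) shared the same end and gave 13. Longer circles were exons 26 to 36 (1611 nt, 14 reads) and exons 5 to 22 (2217 nt, 12 reads), and shorter ones exons 27 to 29 (396 nt, 11 reads) and exons 41 to 44 (450 nt, 10 reads). No Lrba circle started at exon 2 or exon 3.

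Nbeal1, Wdfy3 and Nsmaf gave few and scattered circles. The leading Nbeal1 circle, exons 40 to 46 of 55 on chromosome 1 (60320984 to 60335154, plus strand, 840 nt), had 2, 1 and 4 reads in WT against 0, 0 and 1 in A53T. Of the 11 Nbeal1 circles, 8 were read in 1 library only. Exon 3 began 3 of them, ending at exons 4, 7 and 8 with 4, 5 and 2 reads. The circle of exons 9 to 11 had 5 reads, all in A53T replicate 1. Wdfy3, with 67 exons on chromosome 5, had 6 reads each for exons 2 to 4 (102129245 to 102189609, minus strand, 399 nt) and exons 2 to 3 (102157655 to 102189609, 188 nt). Its circle farthest from these, exons 64 to 66, had 2 reads, both in A53T replicate 3. The annotated start codon lies in 3 member circles, all of them from Wdfy3, exons 2 to 4 among them. The Nsmaf circle, exons 17 to 30 of 31 on chromosome 4 (6398319 to 6418523, minus strand, 1388 nt), had 3 reads in A53T replicate 2 and 0 elsewhere.

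Almost all of these circles were predicted to consist of coding exons. Of the 62 matched circles, 58 (93.5%) lay wholly in coding sequence, against 83.0% of all 12739 matched circRNAs, and 30 of the 58 (51.7%) had a length that is a multiple of 3, against 40.3%. The leading Nbea circle is one of these 30, so that its predicted ring keeps the annotated reading frame across the junction, whereas exons 2 to 10 of Nbea and exons 38 to 40 of Lrba do not. Among the 6 tested members the direction was opposite, with 2 (33.3%) having a length that is a multiple of 3. The share was 39% for the wholly coding circles among all tested ones. Circles of a gene share exons, and neither difference was tested. Translation was not measured. The median predicted length was 605.5 nt for the members and 572 nt for all matched circRNAs.

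The ends of the leading Nbea and Lrba circles lay beside the longest introns of their genes. Intron lengths were taken from the same reference transcripts. The intron before Nbea exon 2 is the longest of 57, at 91851 nt against a median of 2962 nt, and the intron after exon 8 is the fifth longest at 21028 nt. For the group ending at exon 38, the intron after exon 38 (34363 nt) is the fourth longest, and the one before exon 35 (42838 nt) ranks just above it. Lrba exons 38 to 40 lie between the longest of 56 introns (86611 nt, before exon 38) and the next longest (63158 nt, after exon 40), where the median is 3055 nt. Other ends lay beside shorter introns. The intron after Nbea exon 6 has 2750 nt, and those before exons 36 and 37 have 17829 and 16650 nt. The leading Nbeal1 circle starts after 482 nt and ends before 9279 nt (median 1721 nt). The Nsmaf circle lies between introns of 1340 and 1501 nt (median 1338.5 nt), and Wdfy3 exons 2 to 4 between 27852 and 12386 nt (median 1705.5 nt). Circles beside at least 1 of the 5 longest introns held 91.7% of the matched reads of Nbea and 77.6% of those of Lrba. The median was 79.6% over 213 hosts with at least 10 matched circRNAs and 10 introns. Of these, 74 exceeded Nbea and 112 exceeded Lrba, so that neither value stands outside the range of other hosts. The 213 hosts had a median of 24 introns, however, against 57 in Nbea and 56 in Lrba. A place beside 1 of 5 introns is easier to reach with fewer introns, so the ranks are not like for like. In 40 of the 213 (18.8%) the leading circle had the longest intron upstream, as in Nbea and Lrba. These measures were chosen after the data had been seen.

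**Figure D2:**
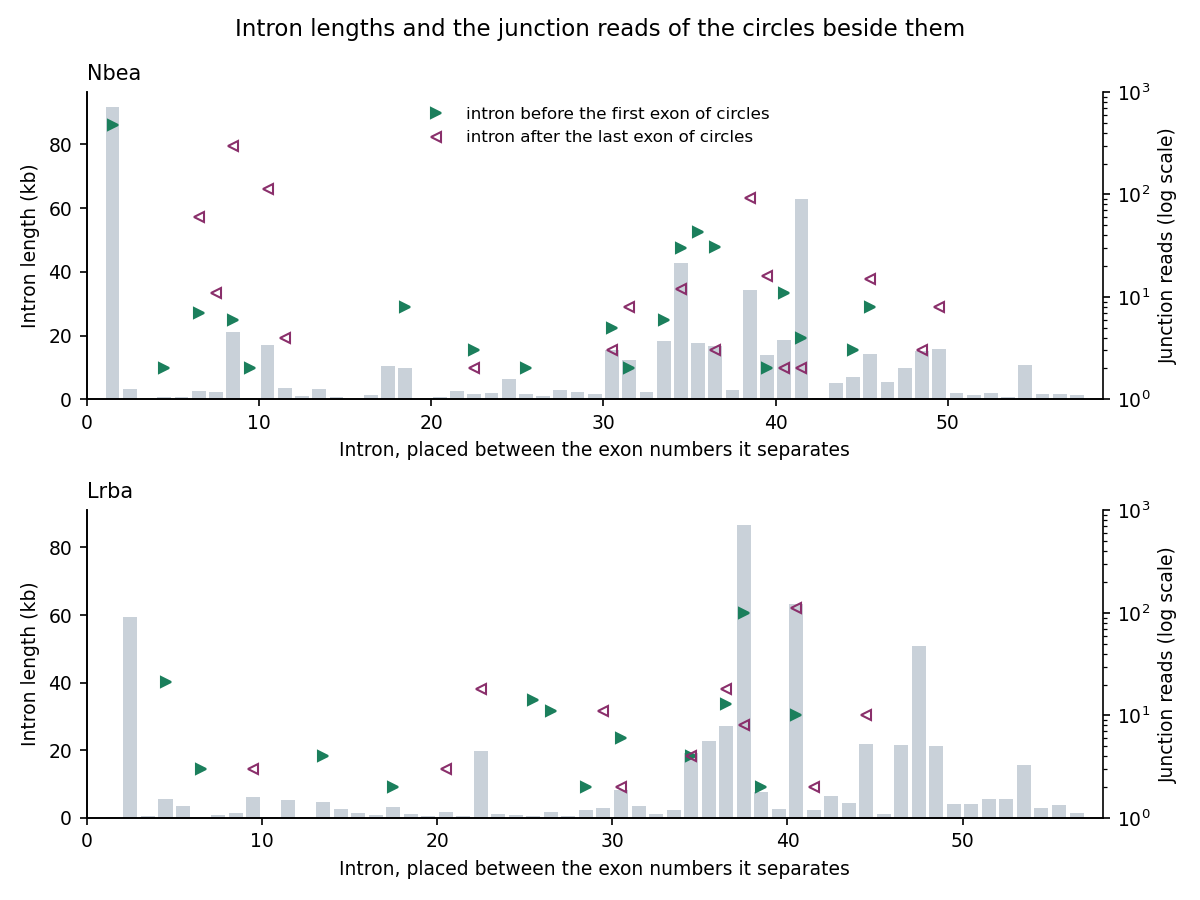
Intron lengths (grey bars, left axis, kb) along Nbea and Lrba, and the junction reads over 6 libraries (right axis, log scale) of circles that start after an intron (filled triangles) or end before it (open triangles). In Nbea the 477 reads of circles starting at exon 2 sit on the longest intron, and in Lrba the 100 reads starting at exon 38 sit on its longest intron.

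Nbea and Lrba were compared codon by codon, since they encode related proteins. Their reference proteins aligned over 2791 residue pairs, of which 67.3% were identical, and 50 of the 56 Lrba introns fell at the aligned codon of an Nbea intron. Of these 50 pairs, 3 had both introns among the 5 longest of their gene. They are the introns before Nbea exon 2 and Lrba exon 3 (91851 and 59492 nt), before Nbea exon 39 and Lrba exon 38 (34363 and 86611 nt), and before Nbea exon 42 and Lrba exon 41 (62791 and 63158 nt). The intron at codon 2050 of Nbea and codon 1976 of Lrba was thus used by both genes, from opposite sides: the Nbea group of 92 reads ended before it, and the leading Lrba circle of 100 reads began after it. In Lrba itself, exons 31 to 37 and exons 35 to 37 ended before it, with 4 reads each. The first pair was used by Nbea, with 477 reads starting after it, and by no Lrba circle. Lrba exons 41 to 44 (10 reads) and Nbea exons 42 to 45 (4 reads) cover the same aligned codons, 2186 to 2335 of Nbea, where 87.3% of residues were identical, and both have a predicted length of 450 nt.

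The stretch of Nbea covered by a local alignment with more distant family members differed in extent from one to the next. A local alignment of Nbea with Wdfy3 covered codons 2199 to 2741 of Nbea, with 41.7% of 525 residue pairs identical. Circles with a codon in this stretch were 5 of the 29 matched ones and held 26 reads, 3.96% of Nbea. Alignments with Nsmaf (codons 1988 to 2925, 31.4% of 857 pairs identical) and Nbeal1 (codons 1866 to 2923, 37.2% of 995 pairs) began further upstream, before the end of exon 38. Circles with a codon there held 21.0% and 23.3% of Nbea reads. The leading Nbea circle lies outside all 3 stretches. Where a local alignment ends depends on its scoring, so related sequence may reach beyond them.

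The A53T and WT libraries were compared in fits over the whole table, and no circRNA or host gene of the family passed an adjusted p of 0.05. The leading Nbea circle, exons 2 to 8, had read counts of 41, 78 and 47 in WT replicates 1, 2 and 3, against 32, 47 and 49 in A53T replicates 1, 2 and 3. The WT mean was 1737 ± 499.6 CPM and the A53T mean 1351 ± 242.0 CPM (SD, n = 3 each), with overlapping groups. The fitted difference of A53T from WT was -0.36 on the log2 scale (standard error 0.26, 95% interval -0.90 to 0.18; edgeR quasi-likelihood, Benjamini-Hochberg adjusted p = 0.993). It was -0.13 without WT replicate 2, the highest library, -0.20 without A53T replicate 1 and -0.56 without WT replicate 1.

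The other tested Nbea circles lay on both sides of 0. Exons 2 to 10 had 13, 31 and 12 reads in WT against 21, 20 and 17 in A53T, or 572.2 ± 262.3 and 617.7 ± 89.7 CPM (SD, n = 3 each). WT replicate 2 was again the highest library, and the log2 fold change was 0.09 (95% interval -0.70 to 0.88), which turned to -0.13 without WT replicate 1 and -0.03 without WT replicate 3. Exons 2 to 6 had 8, 10 and 14 reads against 9, 9 and 10, or 352.3 ± 165.3 and 297.1 ± 14.6 CPM (SD, n = 3 each). Its 3 A53T libraries were close together, between 280.8 and 308.8 CPM, and lay within the WT range; the log2 fold change of -0.21 (95% interval -1.30 to 0.87) turned to 0.20 without WT replicate 3.

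At the exon 38 end, exons 36 to 38 had 4, 8 and 8 reads in WT and 1, 4 and 7 in A53T, with a log2 fold change of -0.74 (95% interval -2.34 to 0.85), which was -0.30 without A53T replicate 1, the library with 1 read. Exons 35 to 38 had 2, 6 and 4 reads in WT and 6, 3 and 7 in A53T, with a log2 fold change of 0.42 (95% interval -1.25 to 2.09), which was 0.08 without WT replicate 1 and 0.72 without A53T replicate 2. For both circles the groups overlapped. Exons 37 to 38 had 12, 0 and 7 reads in WT and 2, 1 and 4 in A53T, and fell under the filter of at least 5 reads in at least 3 libraries. WT replicates 1 and 2 were the highest and the lowest of the 6 libraries here.

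**Figure D3:**
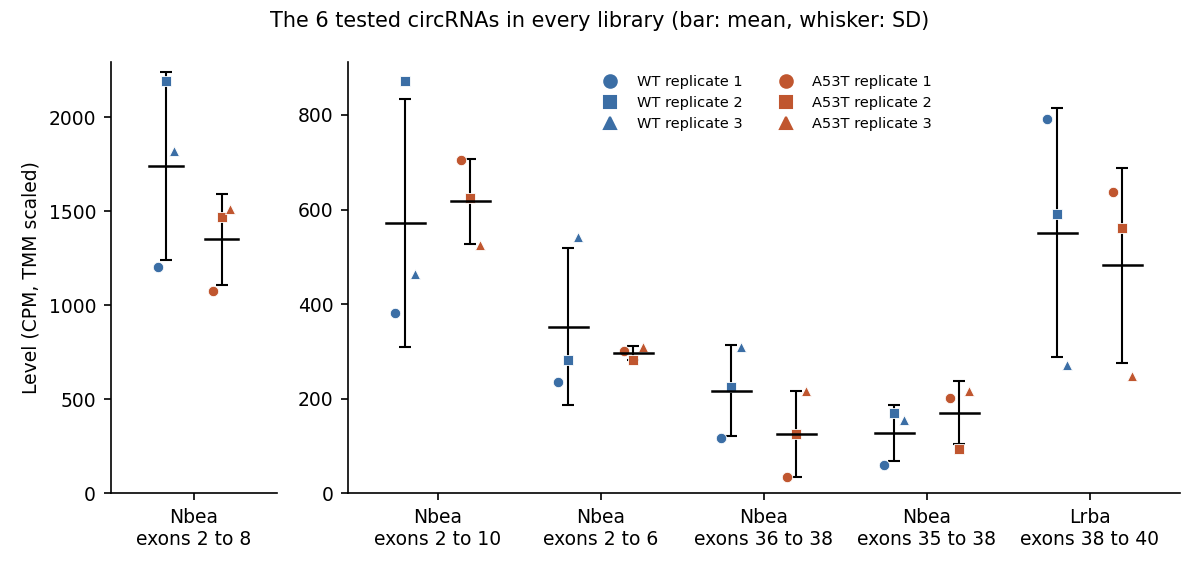
Level of the 6 tested member circRNAs in every library (y axis, CPM after TMM scaling; circles, squares and triangles are replicates 1, 2 and 3; horizontal bar, mean; whisker, SD, n = 3). WT and A53T libraries overlap for each circRNA, and the WT libraries of Nbea exons 2 to 10 spread from 381.3 to 871.2 CPM.

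For Lrba, exons 38 to 40 had 27, 21 and 7 reads in WT against 19, 18 and 8 in A53T, or 550.9 ± 262.9 and 481.9 ± 206.8 CPM (SD, n = 3 each). Replicate 3 was the lowest in both groups, and the log2 fold change was -0.23 (95% interval -1.12 to 0.67), turning to 0.13 without WT replicate 1 and 0.11 without A53T replicate 3. Exons 37 to 40, below the filter, had 3, 5 and 3 reads in WT and 1, 1 and 0 in A53T. Exons 41 to 44 had 0, 2 and 0 reads in WT and 6, 1 and 1 in A53T. Exons 26 to 36 had 2, 4 and 3 reads against 3, 2 and 0, exons 5 to 22 had 6, 0 and 1 against 2, 2 and 1, and exons 27 to 29 had 0, 0 and 3 against 4, 2 and 2. These 5 circles, the ones with at least 10 reads besides the leading one, were named after their values had been seen, and none was tested. Each of the 5 had a library at 0.

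Of 1214 circRNAs tested, 0 passed the edgeR quasi-likelihood test after Benjamini-Hochberg adjustment (0.00%), with 0 in DESeq2 and 1, from another gene, in limma-voom. Before adjustment, 57 (4.70%) had a p under 0.05, 29 of them (2.39%) lower in A53T, and 0 of the 57 were members, whose smallest unadjusted p was 0.183. The 6 tested members were 5 circles of Nbea and 1 of Lrba and held 68.6% of the family's reads. Fitted values were lower in A53T for 4 of these 6, against 51.6% of all tested circRNAs. By edgeR's quasi-likelihood test their adjusted p-values ranged from 0.993 to 1.00.

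The reads of all circles of a gene were then added up. Nbea had 106, 149 and 115 reads in WT and 81, 88 and 118 in A53T, or 3187, 4091 and 4565 CPM against 2793, 2752 and 3603 CPM. WT replicate 1 lay below A53T replicate 3, so the groups overlapped. The means were 3948 ± 700.0 and 3049 ± 479.6 CPM (SD, n = 3 each). On the log2 scale A53T differed by -0.37 (standard error 0.18, 95% interval -0.72 to -0.01), with an unadjusted p of 0.0451 and an adjusted p of 0.991 (edgeR quasi-likelihood, Benjamini-Hochberg). Of 1377 tested host genes, 66 had such a p under 0.05 before adjustment (4.79%), 30 of them lower in A53T like Nbea (2.18%), and 0 passed after adjustment (0.00%), with 0 in DESeq2 and 1, another gene, in limma-voom. Summed neuron markers ran from 1428 to 1951 CPM in WT and from 930.6 to 1926 CPM in A53T, and astrocyte markers from 0 to 151.2 and from 100.5 to 210.1 CPM. Of the neuron markers 3 were tested, 1 higher and 2 lower in A53T, with 0 passing and a median log2 fold change of -0.38. Of these 3, 1 had an unadjusted p under 0.05. Over all tested hosts 50.8% were higher, with a median of 0.01. The 1 tested astrocyte marker was at 1.45 and did not pass. All astrocyte markers together had only 5, 0 and 0 reads in WT replicates 1 to 3, and 3, 6 and 7 in those of A53T. The part of these markers in the Nbea values was not tested. In bulk tissue, fewer cells of a type and less RNA per cell cannot be told apart, and linear mRNA was not measured here.

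Lrba had 43, 36 and 21 reads in WT and 39, 30 and 23 in A53T, or 1038 ± 233.7 and 995.1 ± 325.1 CPM (SD, n = 3 each). In both groups replicate 1 was the highest and replicate 3 the lowest. The log2 fold change was -0.08 (95% interval -0.72 to 0.56), turning to 0.10 without WT replicate 1 and 0.09 without A53T replicate 3. Nbeal1 had 7, 13 and 5 reads against 7, 1 and 7, with a log2 fold change of -0.67 (95% interval -2.19 to 0.86), which was -0.22 without A53T replicate 2, the library with 1 read, -0.35 without WT replicate 2, the library with 13, and -1.06 without A53T replicate 1. Adjusted p-values of Lrba and Nbeal1 were 0.993 and 0.991 (edgeR quasi-likelihood, Benjamini-Hochberg). Wdfy3 stayed under the filter, with 5, 2 and 4 reads in WT and 5, 4 and 4 in A53T.

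**Figure D4:**
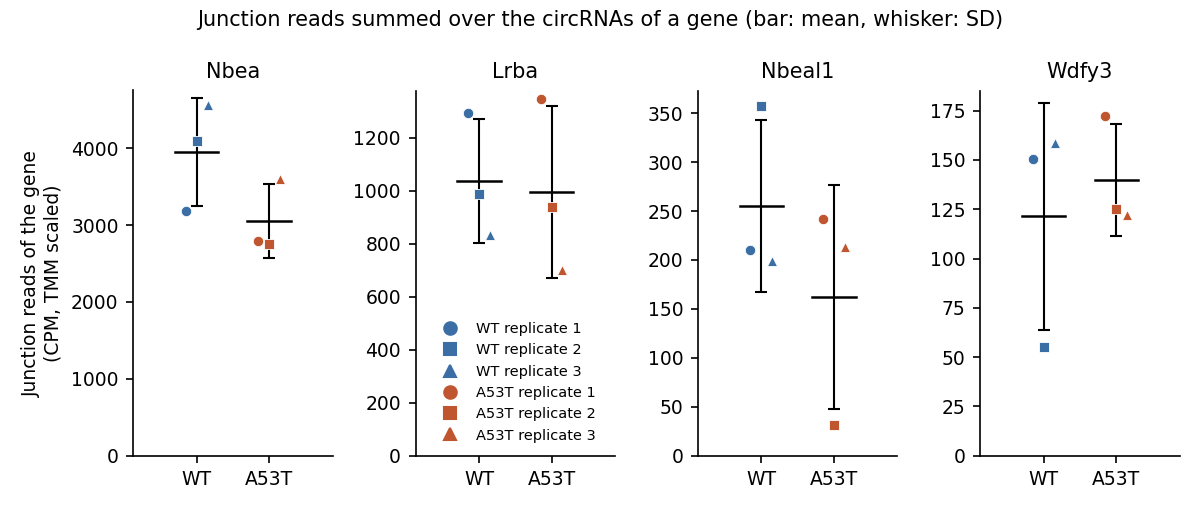
Junction reads summed over the circRNAs of Nbea, Lrba, Nbeal1 and Wdfy3 in every library (y axis, CPM after TMM scaling, a separate scale for each gene; symbols, bars and whiskers as for single circRNAs). For Nbea the WT libraries run from 3187 to 4565 CPM and the A53T libraries from 2752 to 3603 CPM.

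All 66 circles together took 0.487, 0.550 and 0.575% of a library's junction reads in WT (replicates 1, 2 and 3), against 0.442, 0.391 and 0.456% in A53T. The groups did not overlap, with 0.537 ± 0.045% in WT and 0.430 ± 0.034% in A53T (SD, n = 3 each). This sum was not tested, because its members were chosen with results of these data known. Among single host genes, 10.5% of those tested had groups that did not overlap. A sum over several genes has more reads than most single hosts, so this share is not like for like. The groups of Nbea by itself overlapped. The family percents are of library totals without TMM scaling, unlike the levels of host genes. Nbea made up 61.4 to 79.3% of the family's reads in a library.

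**Figure D5:**
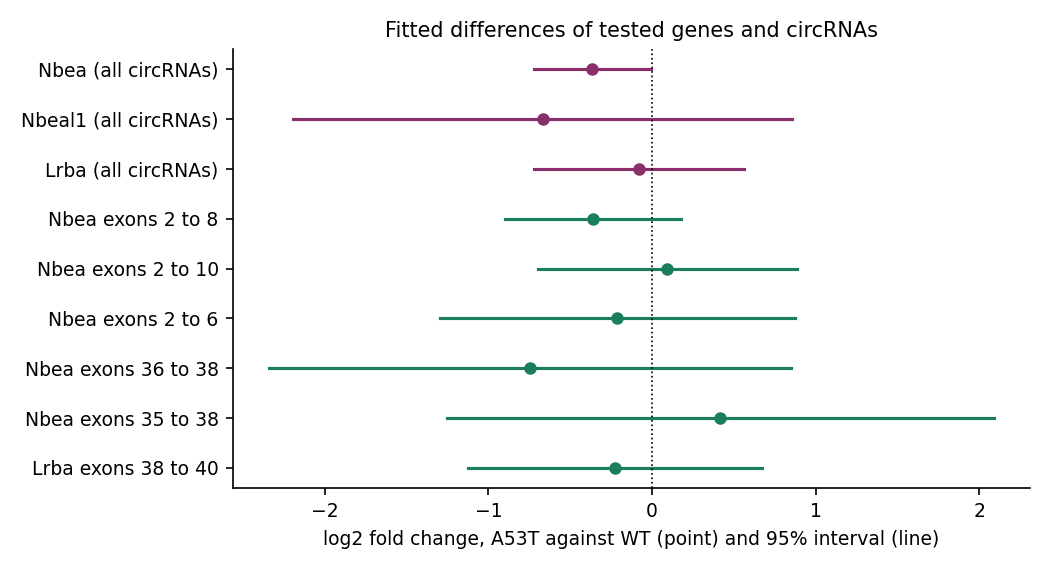
Fitted log2 fold changes of A53T against WT (x axis) for the 3 tested genes, summed over their circRNAs, and the 6 tested circRNAs; points are estimates and lines 95% intervals. Of the 9 intervals, that of the Nbea sum, from -0.72 to -0.01, is the single one that leaves out 0, and its adjusted p was 0.991 (edgeR quasi-likelihood, Benjamini-Hochberg).

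Whether the mix of Nbea circles differed between the groups was asked in 3 ways. In the test of each circle against the other tested circles of its host (edgeR diffSpliceDGE), 0 of 615 circRNAs from 228 hosts passed after Benjamini-Hochberg adjustment (0.00%) and 13 had an unadjusted p under 0.05 (2.11%), with 0 members among them. Relative to the gene, log2 differences of A53T against WT were -0.13 for exons 2 to 8, 0.32 for exons 2 to 10, 0.02 for exons 2 to 6, -0.52 for exons 36 to 38 and 0.65 for exons 35 to 38. The value of exons 2 to 6 turned to -0.32 without WT replicate 2 and -0.04 without A53T replicate 1, and was 0.34 without WT replicate 3. Without A53T replicate 1, exons 2 to 8 were at -0.04, exons 2 to 10 at 0.18 and exons 36 to 38 at -0.13. Exons 2 to 10 were at 0.12 without WT replicate 3 and 0.58 without WT replicate 2. Each had an adjusted p of 1.00 by this edgeR test.

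The leading circle's share of Nbea reads overlapped between the groups. It was 38.7, 52.3 and 40.9% in WT (replicates 1, 2 and 3), against 39.5, 53.4 and 41.5% in A53T, so that replicate 2 was the highest in both groups. The 95% Wilson intervals of single libraries, which cover counting error only, ran from 30.0 to 48.2% in WT replicate 1 and from 43.1 to 63.5% in A53T replicate 2. The means were 43.97 ± 7.34 and 44.8 ± 7.51% (SD, n = 3 each; two-sided exact permutation test, p = 0.7, where the smallest p that 3 against 3 allows is 0.1). The difference of 0.85 percentage points turned to -1.80, -0.70 and -3.45 without WT replicate 1, WT replicate 3 and A53T replicate 2.

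Grouped by the shared ends printed above, circles starting at exon 2 took 61.3, 81.9 and 64.3% of Nbea reads in WT replicates 1 to 3, and 79.0, 86.4 and 64.4% in those of A53T. The lowest library was in WT and the highest in A53T, and the groups overlapped, with means of 69.2 ± 11.1 and 76.6 ± 11.2% (SD, n = 3 each). Circles ending at exon 38 took 9.40 to 17.0% in WT and 9.09 to 18.6% in A53T, with means of 14.3 ± 4.25 and 13.8 ± 4.78% (SD, n = 3 each). This grouping was made after the data had been seen, and it was not tested.

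Each WT library showed 15, 12 or 16 distinct Nbea circles (replicates 1, 2 and 3), and each A53T library 11, 9 or 15. Since the libraries differed in their Nbea reads, the numbers were compared at 81 Nbea reads, the lowest total of any library, where 13.2 ± 2.56 circles were expected in WT and 11.3 ± 2.64 in A53T (SD, n = 3 each; two-sided exact permutation test, p = 0.5). The difference of -1.94 was -0.68 without A53T replicate 2, -1.19 and -1.20 without WT replicates 1 and 3, and -3.42 and -3.32 without WT replicate 2 and A53T replicate 3. The A53T range, 8.76 to 14.0, overlapped the WT range, 10.2 to 14.7. Over both groups, 10 of the 31 Nbea circles were read in WT only and 7 in A53T only, none with more than 6 reads. Of all 66 member circles, 27.3% were read in WT only and 28.8% in A53T only, against 29.1% and 29.5% of all circRNAs.

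The host genes whose summed levels ran most like those of Nbea over the 6 libraries were Sorcs3, a sortilin-related sorting receptor gene, Tnrc6c, a gene of microRNA silencing, Ttc7b, Ncor1, a nuclear corepressor gene, and Zdhhc20, which encodes a palmitoyltransferase. Pearson's r of log2(CPM + 1) was 0.94, 0.93, 0.90, 0.89 and 0.88, and Spearman's rho 0.94, 0.83, 0.83, 0.83 and 0.94. They are the highest of 409 host genes with at least 100 reads, whose median r was -0.06, and come with no p for that reason. Without WT replicate 3 and A53T replicate 2, the libraries farthest from the Nbea median, r was 0.84, 0.97, 0.99, 0.99 and 0.91 over the remaining libraries. The genes were picked with these libraries included, so the values are no independent check. Lrba had an r of -0.53 with Nbea.

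Genes linked to the functions of the family were read as lists of host genes. At most 3 tested genes of each list are named, the ones with the smallest unadjusted p, so they do not stand for their list. One list held the subunits of protein kinase A, which neurobeachin anchors, and other A-kinase anchoring proteins. Of its 29 symbols, 19 had a circRNA and 6 were tested. Among these, 1 was higher and 5 lower in A53T, 0 passed, and the median log2 fold change was -0.32. Over all 1377 tested hosts 50.8% were higher and the median was 0.01, which is the background of the other lists too. Map2 is in this list and among the neuron markers. Akap9, a Golgi and centrosome scaffold gene, averaged 569.3 ± 313.0 CPM over the WT libraries and 260.2 ± 279.6 CPM over the A53T ones (SD, n = 3 each). Its counts were 10, 18 and 23 in WT replicates 1 to 3, and 4, 2 and 19 in those of A53T. By count, A53T replicate 3 lay above WT replicates 1 and 2, so the groups overlapped. Akap7, whose short forms tether the kinase to calcium channels, had 3992 ± 609.1 and 3393 ± 579.1 CPM, and Arfgef2, a guanine nucleotide exchange factor gene for ARF proteins, 535.8 ± 158.6 and 378.3 ± 156.9 CPM. With single libraries left out, log2 fold changes ran from -2.48 (A53T replicate 3) to -0.62 (WT replicate 3) for Akap9, from -0.40 (A53T replicate 1) to -0.11 (WT replicate 2) for Akap7 and from -0.87 (A53T replicate 3) to -0.25 (WT replicate 3) for Arfgef2. Their adjusted p was 0.991 (edgeR quasi-likelihood, Benjamini-Hochberg).

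Of 23 genes for synaptic receptors and their scaffolds, 20 had a circRNA and 10 were tested, 4 higher and 6 lower, with 0 passing and a median of -0.13. Log2 fold changes were -0.96 for Grin2a, an NMDA receptor subunit gene, 0.73 for Gabrb1, a GABA-A receptor subunit gene, and 0.34 for the scaffold gene Dlg1. Gabrb1 was at 0.21 and Dlg1 at 0.05 without WT replicate 3, and Grin2a at -0.56 without A53T replicate 1. Without WT replicate 1, A53T replicate 1 and A53T replicate 2, Dlg1 was at 0.61, 0.53 and 0.14. Among 36 genes of lysosome-related organelles, the compartments that Lyst serves, 16 had a circRNA and 5 were tested, 3 higher and 2 lower, with 0 passing and a median of 0.16; Vps41 was at 0.60, Myo5a at -0.45 and the adaptor subunit gene Ap3b2 at -0.60. Without WT replicate 1, Vps41 was at 1.39 and Ap3b2 at -0.11. Vps41 was at 0.30, 0.32 and 0.36 without WT replicate 2, WT replicate 3 and A53T replicate 3, and Ap3b2 was at -0.92 without WT replicate 2. Of 33 selective autophagy genes, the setting of Wdfy3, 16 had a circRNA and only the cargo receptor gene Tax1bp1 was tested, at 0.43, or 0.78 without WT replicate 1 and 0.23 without WT replicate 3. Of 11 genes for TNF receptor and neutral sphingomyelinase signalling, the setting of Nsmaf, 3 had a circRNA and 0 were tested. For the genes named from these lists, edgeR's quasi-likelihood test gave adjusted p-values of 0.991 to 0.993.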

How the data were processed

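Per the file headers, the deposited table gives for each circRNA junction read counts per library and, beside them, log2 CPM values of the authors. Named in the submitters' processing notes are mm39, edgeR 3.16.5, STAR and cutadapt 1.9.3. The circRNA caller was not given in the sources used here, nor was any use of strand in counting. The deposited log2 CPM served only as a check: recomputed with a prior count of 2, it differed by at most 0.122. Predicted lengths are other values of the deposited table.

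Counts were tested with edgeR 4.0.16 in R 4.3.3 (quasi-likelihood, robust, TMM, no covariate, two-sided, Benjamini-Hochberg) over all circRNAs, or sums per host gene, with at least 5 reads in at least 3 libraries. Circle usage was tested with diffSpliceDGE on the same fit. The 338 circRNAs with no gene name stayed out of host sums. Library totals ran from 25217 to 36390. Intervals are 95%, with each standard error taken as the fold change over the square root of F. The scripts were tested on simulated data. Alternatives were DESeq2 1.42.0, limma-voom (limma 3.58.1), other scalings and filters, a block for replicate number, and leaving out single replicates. Exact permutation tests used scipy 1.17.1, and figures matplotlib 3.10.9.

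Exons were matched by span and predicted length to GENCODE M21 transcripts (GRCm38), which gave a single run for 97.0% of exonic circRNAs; printed coordinates are the table's own (mm39, 1-based), without conversion. Reference proteins were translated from these transcripts and aligned with Biopython 1.88 (BLOSUM62, gap penalties 11 and 1). Replicates of a group differed beyond sampling noise and were counted separately.

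Named were all 7 genes, every tested member circRNA, for a gene with none its leading circRNA, and Nbea circRNAs with at least 10 reads. Also named were the 5 host genes most like Nbea and, from each list, at most 3 tested genes, those with the smallest unadjusted p. The members, lists and tests were chosen with earlier results of these data known.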

Additional observations from a re-analysis of the deposited data

How the results depend on the processing

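No member circRNA or gene passed an adjusted p of 0.05 under any of the 14 settings of the circRNA and host tests or the 10 of the usage test. Among all circRNAs, 1 passed with at least 10 reads in 3 libraries, 1 with limma-voom, and 0 to 1 when single replicates were left out (1 without A53T replicate 2 and 1 without A53T replicate 3); among host genes 1 passed with limma-voom. With single replicates left out, log2 fold changes ran from -0.36 to 0.10 for the Lrba sum, from -0.13 to 0.56 for Nbea exons 2 to 10, from -0.43 to 0.20 for Nbea exons 2 to 6 and from -0.53 to 0.13 for Lrba exons 38 to 40; the usage value of Nbea exons 2 to 6 ran from -0.32 to 0.34. The fold change of Nbea exons 2 to 8 ran from -0.56 to -0.13, and limma-voom put exons 2 to 6 at -0.09. The leading circle's share of Nbea reads differed by -3.45 to 5.04 percentage points, and by -2.30 among circRNAs with at least 10 reads. The Nbea sum kept its sign in all 13 alternatives, at -0.54 to -0.28, with unadjusted p from 0.00904 to 0.159 and adjusted p from 0.629 to 1.00 (edgeR quasi-likelihood, DESeq2 and limma-voom). The cause of these shifts was not tested.

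Replicate numbers are shared by the groups. Deviations of same-numbered libraries had correlations of -0.03, 0.01 and 0.02 over tested circRNAs. Counting noise at so few reads can bring such values near 0 by itself, so they cannot show whether the numbers pair the samples. With a replicate block 0 circRNAs and 0 host genes passed, and the Nbea sum was at -0.37. Of the members, 60 of 66 circRNAs were too thinly read for a test.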

Other observations

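One Nbea circRNA had the ends of the leading circle, exons 2 to 8, but lay on the opposite strand. It had 3 reads in WT replicate 1, which held 41 reads of the circle on the gene's own strand, and 0 in the other libraries. Among all circRNAs, 222 of 17914 pairs of ends (1.24%) were listed on both strands. Since the sources used here do not say if strand entered the counting, the strand of these reads is uncertain.

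Of the BEACH family genes outside the 7, Wdr81, which acts in endosome maturation, had 1 circRNA with 3 reads in WT replicate 2, and no row analysed here names Wdfy4.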
